A study of Mus musculus with 3 samples.

Results

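The nuclear genes of the mitochondrial respiratory chain and the ATP synthase were examined in the embryonic region of wild-type mouse embryos at the early headfold (EHF) stage. Members were the rows of the deposited non-normalized signal table whose gene symbol begins with Nduf, Uqcr, Cox4 to Cox8 or Atp5, or is *Sdha*, *Sdhb*, *Sdhc*, *Sdhd*, *Cycs* or *Cyc1*. They numbered 83 of 30854 symbols, with 37 in complex I, 4 in complex II, 8 in complex III, 17 in complex IV and 16 in the ATP synthase, plus cytochrome c. The labels give the strain as Cd-1 (the study's methods name wild-type ICR), the stage as EHF and the tissue as embryo, and the study's methods add that embryos were cut at the boundary between the embryonic and extraembryonic parts and the embryonic part was kept. Total RNA was hybridized to 3 Illumina Mouse-6 bead arrays, labelled replicates 1, 2 and 3, which form the only group, so no genotype, stage or tissue can be compared. Nothing states whether an array holds RNA of 1 embryo or of a pool, and the spread between arrays may therefore be partly technical. In whole-tissue RNA, fewer cells of a type and less RNA per cell cannot be told apart.

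The respiratory chain passes electrons from NADH (complex I) and succinate (complex II) through ubiquinone to complex III, then by the small carrier cytochrome c to complex IV, which reduces oxygen. Complexes I, III and IV pump protons across the inner mitochondrial membrane, and the ATP synthase lets them return to make ATP. All but a few subunits are nuclear genes used by most cells, whereas several subunits of complex IV also have isoforms known mainly from heart and skeletal muscle, lung or testis. The gastrulating mouse embryo is known to rely heavily on glycolysis.

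For each symbol the table gives a log2 signal, which is the mean where a symbol has several probes, and a detection p, the share of the array's negative-control probes that were as bright or brighter (combined over several probes). The threshold for calling a member above background was a detection p below 0.01 on each of the 3 arrays. This held for 60 of the 83 members, whereas it held for 20.6% of all symbols on the arrays. In 50 of the 60 the detection p was 0 on every array. By complex, 29 of 37 members of complex I were above background, 2 of 4 of complex II, 6 of 8 of complex III, 9 of 17 of complex IV and 13 of 16 of the ATP synthase, as was cytochrome c. Members with 1 probe passed in 45 of 53 cases, and those with several probes in 15 of 30. The same shares over all symbols were 20.8% for 1 probe and 20.1% for several. Mean log2 signals of the 60 ran from 6.74 to 13.73, and their bead numbers, averaged over the probes of a symbol, from 25 to 66. Because probes hybridize differently, signals are set here only against the background of their own array and never against another probe.

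The background level of an array, the lowest signal of a 1-probe symbol with a detection p above 0 and under 0.01, was 6.69, 6.66 and 6.58 on replicates 1, 2 and 3. A mean signal above that level on all 3 arrays was found for 67 members, and for 26.3% of all symbols. After normexp background correction and quantile normalization, the one-sided test of limma with Benjamini-Hochberg adjustment over all symbols placed 66 members above the background level. It called 25.7% of all symbols, and 59 of its 66 members were among the 60. The moderated standard error was the same for every gene although the spread over arrays differed between genes, and the p-values are therefore not quoted.

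**Figure D1:**
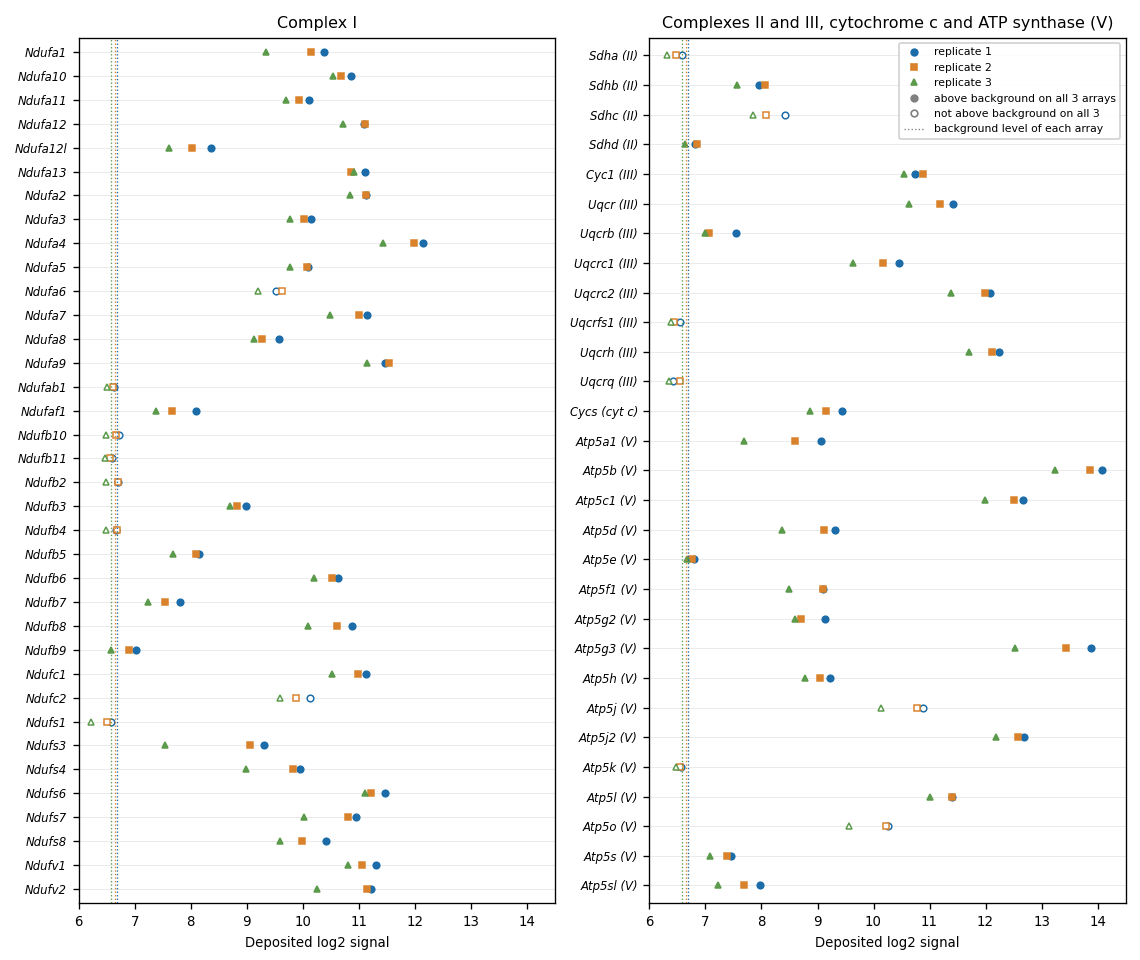
Deposited log2 signal (horizontal axis) of members of complex I (left) and of complexes II and III, cytochrome c and the ATP synthase (right) on replicates 1, 2 and 3, with dotted lines at the background level of each array. Filled symbols mark members above background on all 3 arrays, and open symbols lying far to the right of the lines, such as *Ndufc2* and *Atp5j*, are symbols with several probes.

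Promoter sequence is shown because the list of other genes of the pathway holds 4 factors known to act on respiratory genes, NRF1, GABPA (an ETS factor), YY1 and ESRRA. RefSeq windows of 300 bases (GRCm38.p6, 250 before to 50 after the transcript start) matched 67 members, 50 of them above background. Searched on both strands were GCATGCGC (the core of the NRF1 site), CCGGAAGT (ETS), AAGATGGC (YY1) and TCAAGGTCA (ESRRA). The NRF1 core stood in the windows of 18% of members above background, of 6.89% of all genes above background and of 3.05% of all genes with a window. The YY1 core stood in 20%, 6.61% and 3.19% of these, and the ESRRA site in 4%, 0.379% and 0.466%. The ETS core stood in 8% of members above background, against 11.1% of all genes above background and 4.31% of all genes. Among the 50 members above background these are 9 genes for NRF1, 10 for YY1, 4 for ETS and 2 for ESRRA. The shares for ETS and ESRRA thus rest on few genes. Of the 17 members with a window that were not above background, 2 held the NRF1 core and 1 the YY1 core. Among these, *Ndufa6* (NRF1) and *Atp5j* (YY1) had mean signals above the background level on all 3 arrays. These shares are a description, and a match of letters is not a binding site.

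The stretches below carry the NRF1 core upstream of the start in members of complexes I, II and IV, cytochrome c and the ATP synthase, and for comparison 1 ETS and 1 ESRRA match. Matches of the NRF1 core in complex III reached or followed the start and are not printed. They are written 5′ to 3′ on the strand of the gene, with the matched letters in capitals.

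*Cycs*, chr6:50566608-50566643, minus strand: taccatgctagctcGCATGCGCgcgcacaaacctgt
*Ndufa11*, chr17:56717690-56717725, plus strand: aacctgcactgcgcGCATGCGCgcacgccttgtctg
*Ndufa6*, chr15:82354353-82354388, minus strand: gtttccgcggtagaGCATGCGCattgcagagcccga
*Sdhb*, chr4:140961203-140961238, plus strand: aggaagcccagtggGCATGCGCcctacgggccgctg
*Cox6a1*, chr5:115349097-115349132, minus strand: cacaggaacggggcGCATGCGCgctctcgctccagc
*Atp5g2*, chr15:102671066-102671101, minus strand: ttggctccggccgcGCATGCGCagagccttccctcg
*Atp5k*, chr5:108434426-108434461, minus strand: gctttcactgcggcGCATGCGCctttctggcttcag
*Uqcr* (ETS), chr10:80406866-80406901, minus strand: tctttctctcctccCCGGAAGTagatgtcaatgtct
*Atp5g3* (ESRRA, on the opposite strand), chr2:73911356-73911392, minus strand: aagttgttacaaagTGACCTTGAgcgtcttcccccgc

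In *Cycs* the NRF1 core began 60 bases before the transcript start, in *Sdhb* 54, in *Ndufa11* 58 and in *Atp5g2* 40. Of the 11 members with this core, 9 were above background, and *Atp5k* and *Ndufa6* were not. The core was found in 3 members of complex I, 1 of complex II, 2 of complex III, 1 of complex IV and 3 of the ATP synthase, besides cytochrome c. The YY1 core reached or followed the start in 10 of its 11 members, and its letters include ATG, as a start codon does. In *Atp5f1* it spanned the start and lay on the opposite strand. For *Atp5sl* it also lay upstream of another transcript start. The NRF1 core partly overlaps its own reverse complement, and such pairs were counted once. Matches to different motifs did not overlap, and *Uqcr* was the only member with matches to 2 motifs. On the arrays the factors themselves were not all above background: *Nrf1* and *Esrra* were, with mean log2 signals of 8.16 and 7.32, whereas *Gabpa* was detected on 0 arrays and *Yy1* on 1. Only 1 probe was inferred for *Yy1*. *Gabpa*, with at least 4 probes, had a combined detection p of 0.01001 on replicate 2, just past the threshold. Neither result shows that the factor was absent.

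**Figure D2:**
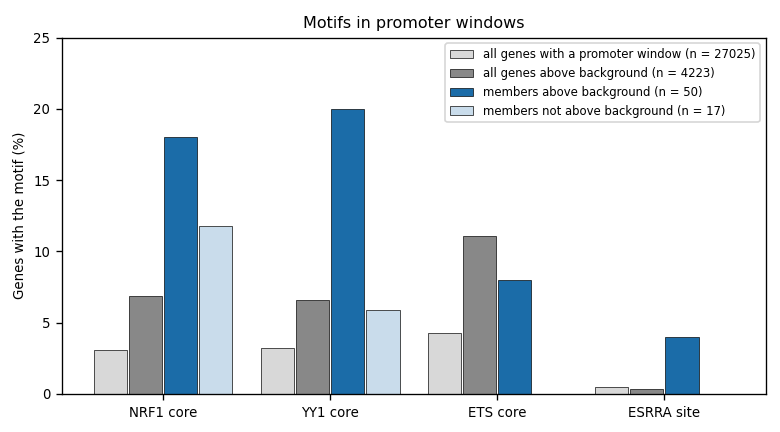
Percentage of genes (vertical axis) whose promoter window holds each motif, for all genes with a window, all genes above background, members above background and members not above background. Members above background stand at 18% for the NRF1 core and 20% for the YY1 core, over 6.89% and 6.61% of all genes above background.

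Complex I has a core of subunits that carry its flavin, iron-sulphur clusters and quinone site, surrounded by accessory subunits. Of the 7 nuclear core genes, 6 were above background, and of 28 accessory genes, 21. *Ndufv1*, which binds NADH and the flavin, gave log2 signals of 11.30, 11.05 and 10.80, listed here and in what follows in the order of the replicates. Its normalized level was 6.14 above the background level (SD 0.13, n = 3, taken as for all such levels after subtracting the background of each array), or 4.41 on the deposited signals. *Ndufv2*, its partner with an iron-sulphur cluster, had signals of 11.22, 11.15 and 10.25, and *Ndufs7*, which holds the cluster next to the quinone, had 10.95, 10.81 and 10.03. All of these values lay far over the background levels of their arrays. *Ndufs8*, another carrier of clusters, had signals of 10.41, 9.99 and 9.60.

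*Ndufs1*, the largest core subunit and a carrier of several clusters, was the core gene without a call. Its log2 signals were 6.57, 6.51 and 6.22, and its detection p-values were 0.162, 0.247 and 0.988. Each signal lay under the background level of its array. A probe at background shows only that this probe gave no signal over the negative controls, and it was the only probe inferred for *Ndufs1*.

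*Ndufs3*, a core subunit, varied most among the 60 members. It had signals of 9.31, 9.06 and 7.55, so replicate 3 was far lower than the other arrays while still having a detection p of 0. After quantile normalization the level on replicate 3 was lower than the mean of the others by a difference of -1.51. The SD of the normalized level over arrays, with no background subtracted, was 0.87. The same SD had a median of 0.15 over the 60 members and 0.17 over all 6357 symbols above background.

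Among the accessory subunits the Ndufa series was above background in 12 of 13 genes and the Ndufb series, which belongs to the membrane arm, in 6 of 10. *Ndufa4*, listed here by its symbol and assigned in later work to complex IV, had log2 signals of 12.14, 11.98 and 11.43. *Ndufa9*, a subunit at the joint of the arms, had 11.47, 11.54 and 11.15. *Ndufb2*, *Ndufb4*, *Ndufb10* and *Ndufb11*, each with 2 probes, were detected on 0 arrays. Their highest signals were 6.70, 6.68, 6.73 and 6.60, close to the background levels. *Ndufb9* lay close to the threshold on the other side, with signals of 7.03, 6.90 and 6.58 and detection p-values of 0, 0 and 0.00855. *Ndufab1*, the mitochondrial acyl carrier protein, had signals of 6.62, 6.62 and 6.51 and was detected on 0 arrays. The assembly factors *Ndufaf1* and *Ndufa12l* (now *Ndufaf2*) were both above background, with signals of 8.10, 7.67 and 7.39 and of 8.36, 8.03 and 7.62.

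Complex II is succinate dehydrogenase, shared between the respiratory chain and the tricarboxylic acid cycle. *Sdhb*, its iron-sulphur subunit, had log2 signals of 7.96, 8.06 and 7.56, and its level was 2.47 above background (SD 0.24, n = 3), or 1.22 on the deposited signals. *Sdhd*, a membrane anchor, was also called, with signals of 6.81, 6.86 and 6.63 that were close to background on every array. *Sdha*, the flavin-bearing catalytic subunit, was not, at 6.58, 6.48 and 6.31 with detection p-values of 0.0398, 0.347 and 0.754. *Sdhc*, the other membrane anchor, had signals of 8.42, 8.08 and 7.85, all above the background levels, but combined detection p-values of 0.217, 0.494 and 0.0153 over at least 2 probes. *Sdha* was the only one of these 4 genes with no signal above the background level on any array.

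In complex III, *Uqcrc1* and *Uqcrc2*, the large core proteins, had log2 signals of 10.46, 10.17 and 9.63 and of 12.08, 11.99 and 11.39. *Cyc1*, the cytochrome c1 that hands electrons to cytochrome c, had 10.74, 10.89 and 10.55, and its level was 5.82 above background (SD 0.12, n = 3), or 4.08 on the deposited signals. *Uqcrh*, a hinge protein that aids that transfer, had 12.24, 12.12 and 11.70. *Uqcrb*, with 7.55, 7.06 and 6.99, and *Uqcr* (now *Uqcr11*), with 11.42, 11.19 and 10.63, completed the 6 genes called. *Uqcrfs1*, the Rieske iron-sulphur protein without which the complex does not turn over, had signals of 6.54, 6.44 and 6.38, and *Uqcrq*, a small subunit, had 6.43, 6.55 and 6.36. Both were below the background level on every array. Cytochrome c itself, *Cycs*, had signals of 9.44, 9.15 and 8.86 over 3 probes and a level of 4.10 above background (SD 0.16, n = 3), or 2.51 on the deposited signals. *Cyct*, the cytochrome c of the testis, had a mean signal of 6.36 and was detected on 0 arrays.

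Complex IV holds most of the tissue isoforms. *Cox4i1*, the widely used form of subunit 4, had log2 signals of 11.33, 11.04 and 10.41. *Cox4i2*, the lung form, had 6.94, 6.59 and 6.69 with detection p-values of 0.00107, 0.0427 and 0, so it passed on replicates 1 and 3 and was below the background level on replicate 2. The lung form was near background where the common form was far over it on every array. *Cox6a1* and *Cox6b1*, the common forms of subunits 6a and 6b, had signals of 11.43, 11.38 and 11.05 and of 11.90, 11.82 and 11.34. *Cox6a2*, the heart and muscle form, had signals of 6.48, 6.54 and 6.25, and *Cox6b2*, the testis form, of 6.77, 6.69 and 6.57 with detection p-values of 0.227, 0.451 and 0.0245. Neither of these restricted forms was detected on any array. *Cox7b*, whose signals were 7.16, 7.03 and 6.76, was called, and its testis counterpart *Cox7b2* was not, at 6.47, 6.47 and 6.28. *Cox8b*, the heart and muscle form of subunit 8, had 6.44, 6.55 and 6.40, and the testis form *Cox8c* had 6.45, 6.52 and 6.45. In each of these 4 pairs with both forms measured, the common form was above background on all 3 arrays and the restricted form was not.

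Subunit 7a did not follow this division. *Cox7a1*, known as its heart and muscle form, was above background on every array, with log2 signals of 7.41, 7.37 and 6.81, and detection p-values of 0. *Cox7a2*, the widely used form, had 8.05, 7.98 and 7.03. *Cox7a2l*, a related protein that joins complexes III and IV, had 8.23, 7.99 and 7.72 and passed on 2 arrays. Of 9 cardiac and striated muscle markers measured, 4 were above background, a call made for 20.6% of all symbols. The markers called were *Myl2*, *Myl4*, *Myl7* and *Nkx2-5*, while *Ckm*, *Myh6*, *Tnni1* and *Actc1* were detected on 0 arrays and *Myh7* on 1. The summed signal of the marker list was 10.24, 10.16 and 10.08 on the log2 scale, and its part in the *Cox7a1* signal was not tested.

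**Figure D3:**
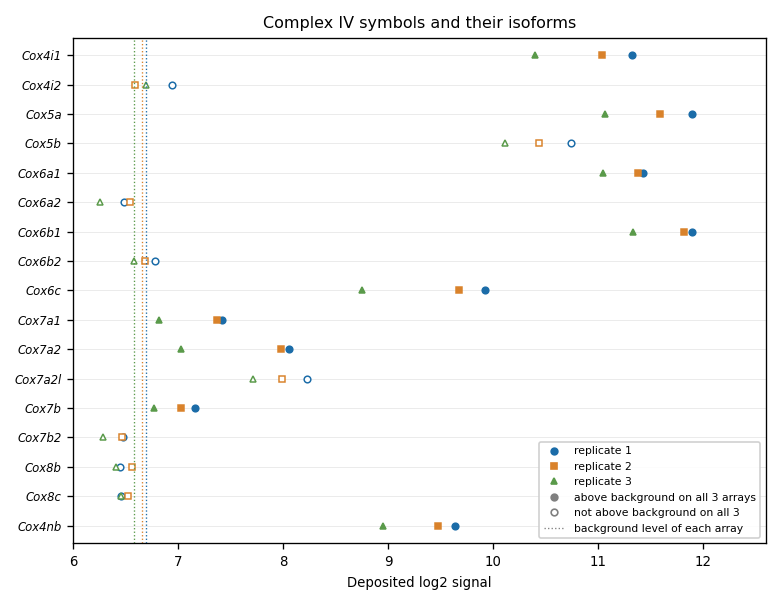
Deposited log2 signal (horizontal axis) of the complex IV symbols on replicates 1, 2 and 3, ordered by subunit, with dotted lines at the background level of each array and filled symbols for genes above background on all 3. *Cox6a2*, *Cox6b2*, *Cox7b2*, *Cox8b* and *Cox8c* lie at or near the lines, whereas *Cox7a1* lies to their right on every array.

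*Cox5a*, which with *Cox5b* sits on the matrix side of complex IV, had log2 signals of 11.90, 11.59 and 11.06, and *Cox6c*, a small membrane subunit, of 9.93, 9.67 and 8.75. *Cox5b* had signals of 10.75, 10.44 and 10.11 but combined detection p-values of 0.0834, 0.0631 and 0.0768 over 3 probes, so it was detected on 0 arrays. *Cox4nb*, which meets the rule by its older name, is now *Emc8*, a subunit of an endoplasmic reticulum complex. It had 9.64, 9.48 and 8.95. Without it and the other 4 symbols that are assembly factors or other proteins (*Ndufaf1*, *Ndufa12l*, *Atp5s* and *Atp5sl*), 55 of 78 members were above background.

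The ATP synthase has a soluble head (F1), where ATP is made, and a membrane part (Fo) with a ring of c subunits. All 5 head subunits alpha to epsilon were above background. *Atp5b*, the catalytic beta subunit, had log2 signals of 14.08, 13.87 and 13.25 and a level of 8.90 above background (SD 0.33, n = 3), or 7.09 on the deposited signals. *Atp5c1*, the gamma subunit of the rotor, had 12.66, 12.51 and 11.99. *Atp5a1*, the alpha subunit, had 9.05, 8.61 and 7.70 and was among the 3 most variable members, with a normalized level lower on replicate 3 than the mean of the others by a difference of -0.87. The smallest head subunit *Atp5e* had 6.79, 6.77 and 6.68. These values were just over the background levels, and *Atp5e* was the only one of the 60 that limma did not call.

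Genes for the c ring encode the same mature protein behind different import sequences. *Atp5g3* had log2 signals of 13.87, 13.44 and 12.53, and *Atp5g2* had 9.14, 8.70 and 8.59. Both were above background on all 3 arrays. Of the stalk subunits, *Atp5h* had 9.23, 9.04 and 8.77, *Atp5o* (the OSCP subunit) had 10.26, 10.22 and 9.57, and *Atp5j* (factor 6) had 10.88, 10.78 and 10.13. *Atp5o* passed the detection threshold on 2 arrays and *Atp5j* on 1, each with 3 probes. *Atp5k*, the e subunit that helps hold dimers of the enzyme, had 6.57, 6.54 and 6.47 and was detected on 0 arrays.

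The 23 members that were not above background on all 3 arrays fell into 3 kinds. Mean signals of 7 were above the background level on every array, namely *Atp5j*, *Atp5o*, *Cox5b*, *Cox7a2l*, *Ndufa6*, *Ndufc2* and *Sdhc*. All 7 have several probes, which follows from the definition of the background level, because a 1-probe symbol above it passes the detection threshold. Since a mean cannot exceed its highest value, at least 1 probe of each was above the background level on each array. For *Ndufc2* the signals were 10.14, 9.87 and 9.59 with detection p-values of 0.00935, 0.0371 and 0.452, and for *Ndufa6* they were 9.53, 9.63 and 9.20 with 0.0271, 0.000302 and 0.000329. A further 6 were the isoforms *Cox4i2*, *Cox6a2*, *Cox6b2*, *Cox7b2*, *Cox8b* and *Cox8c*. The remaining 10 were *Atp5k*, *Ndufab1*, *Ndufb2*, *Ndufb4*, *Ndufb10*, *Ndufb11*, *Ndufs1*, *Sdha*, *Uqcrfs1* and *Uqcrq*, widely used subunits of which 7 have several probes. In all, 17 of the 23 were detected on 0 arrays. Detection on at least 1 array held for 66 of the 83 members and for 10172 of all 30854 symbols.

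Signals of the members differed between arrays as those of other genes did. As deposited, 52 of the 60 were highest on replicate 1 and 59 lowest on replicate 3, against 84.9% and 93.4% of all symbols above background. After quantile normalization the median difference of replicate 1 from the mean of the others was -0.01 on the log2 scale over the 60 members, that of replicate 2 was 0.04 and that of replicate 3 was -0.02. Over all symbols above background these were -0.01, -0.01 and 0.03. By complex, the median on replicate 3 was 0.05 for the 29 genes of complex I, -0.14 for the 9 of complex IV and -0.08 for the 13 of the ATP synthase. Scaling to medians in place of quantiles, after normexp, moved these members to 0.38 on replicate 1 and -0.55 on replicate 3, and all symbols above background to 0.41 and -0.47. Each value is 1 array against 2, so none was tested.

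Departures of single genes were larger than these medians. Differences from the other arrays of more than 0.5 in size were upward in 2 members and downward in 0 on replicate 1, upward in 2 and downward in 1 on replicate 2, and upward in 1 and downward in 6 on replicate 3. These counts are linked, since a gene low on 1 array is high on the others, and *Ndufs3* was counted on every array. The same counts were not made over all symbols. Lower and upper quartiles on replicate 3 were -0.19 and 0.19 over the 60 members. Over all symbols above background they were -0.18 and 0.22. The largest SDs were those of *Ndufs3* (0.87), *Cox7a2* (0.57) and *Atp5a1* (0.52), all with replicate 3 as the lowest array. The smallest were those of *Ndufa7* (0.02), *Ndufc1* (0.03) and *Cox6b1* (0.05). Normalized SDs over 0.43 were found in 3 of the 60 members, the same share as among all 6357 symbols above background. On the deposited signals, SDs over 0.52 were found in 7 of the 60, a larger share than among all these symbols. Levels of marker lists differed between these arrays too. The median level of 14 visceral endoderm markers over background was 3.35, 4.14 and 3.19 on replicates 1, 2 and 3, and their summed signal was 13.90, 13.99 and 12.94 on the log2 scale. All but *Afp*, which passed on 2 arrays, were above background, 13 of the 14. The median level of the 8 embryonic region markers was 1.70, 1.13 and 0.76, and their summed signal was 11.86, 11.44 and 11.08. Both median levels have the background level of each array subtracted, which after normalization was 4.68, 4.81 and 5.06 on replicates 1, 2 and 3. This subtraction alone lowers replicate 3 most, so these medians do not rank the arrays. The extraembryonic ectoderm markers had a summed signal of 11.32, 11.24 and 10.53. These sums, on the log2 scale, are of deposited signals, which were lowest on replicate 3 for 93.4% of all symbols above background. Their part in the differences of single members was not tested.

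**Figure D4:**
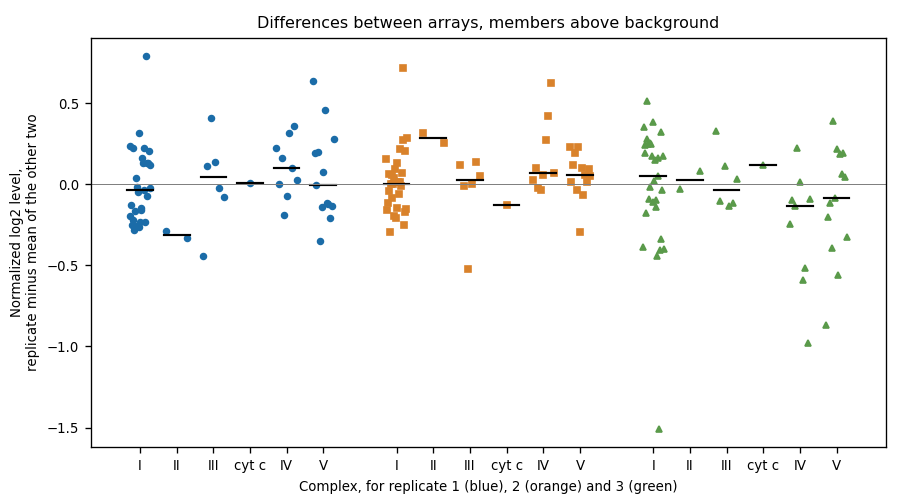
Normalized log2 level of each member above background on 1 replicate minus the mean of the other replicates (vertical axis), grouped by replicate and complex (V is the ATP synthase), with a bar at the median of each complex. The points scatter around 0 on every array, and the lowest point, on replicate 3, is *Ndufs3* at -1.51.

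Of 80 other genes of the pathway listed, 76 were measured and 47 were above background, and 62 exceeded the background level of each array by their mean signal. Over all symbols these shares were 20.6% and 26.3%, which also apply to the counts of single lists that follow. Assembly factors of the complexes passed in 24 of 32 cases, among them *Cox10* and *Cox15* (heme a synthesis), *Cox17* (a copper chaperone) and *Bcs1l* (insertion of the Rieske protein). Mean log2 signals were 9.91 for *Cox10* (SD 0.06, n = 3), 8.13 for *Cox15* (SD 0.17, n = 3) and 10.52 for *Cox17* (SD 0.24, n = 3). *Cox11* and *Sco1*, both of copper delivery to complex IV, passed on 2 arrays, *Taco1* (as *Ccdc44*) and *Tmem70* on 1, and *Atpaf1*, a chaperone of the F1 head, *Nubpl* and *Cox16* (as *1810020G14Rik*) on 0. *Coa5* (as *6330578E17Rik*) was also detected on 0 arrays, but its signals of 9.22, 9.03 and 8.13 over at least 2 probes were above the background level on each. Carriers and regulators of the ATP synthase passed in 5 of 8. Of the ADP/ATP carriers, *Slc25a5* had log2 signals of 12.93, 13.03 and 12.31 and was called, whereas *Slc25a4*, the form of heart and muscle, and *Slc25a31*, that of germ cells, were detected on 0 arrays. *Vdac3*, an outer membrane channel, passed on 1. *Atpif1*, the inhibitor of ATP hydrolysis, had a mean log2 signal of 12.85.

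Regulators of nuclear respiratory genes and factors of mitochondrial DNA passed in 7 of 15 cases, which included *Tfam* (packaging of that DNA), *Polrmt* (its RNA polymerase) and *Pprc1*, a coactivator. *Ppargc1b* was above background at a mean log2 signal of 6.86, and its relative *Ppargc1a* was detected on 0 arrays at 6.55. *Gabpb1*, *Tfb2m* and *Ssbp1* were detected on 1 array, and *Tfb1m* and *Peo1* (now *Twnk*) on 2. Enzymes of the tricarboxylic acid cycle passed in 8 of 13, among them *Cs* and *Mdh2*, whereas *Ogdh*, *Dld* and *Sucla2* were detected on 0 arrays, *Idh3a* on 1 and *Fh1* on 2. By mean signal 11 of the 13 were above the background level on every array, with *Ogdh* at 7.83, 7.43 and 7.36 and *Fh1* at 8.91, 8.55 and 8.14, and *Dld* and *Sucla2* were not. Of 8 other genes of electron entry, *Etfa*, *Etfb* and *Chchd4* passed, and *Etfdh*, *Dhodh* and *Cyct* were detected on 0 arrays, *Aifm1* on 1 and *Gpd2* on 2. By mean signal 7 of the 8 were above the background level on every array, all but *Cyct*, with *Dhodh* at 7.42, 7.27 and 7.16.

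The label of the tissue was set beside marker lists, and 20.6% of all symbols were above background. Of 14 visceral endoderm markers, 13 were above background, the largest share of the marker lists. Their mean log2 signals ran from 6.86 for *Apoc2* to 11.45 for *Spink3*. The study describes cells derived from visceral endoderm that are scattered in the gut endoderm of the embryonic part at EHF. By in situ hybridization at headfold stages it reports *Apoc2* only in the extraembryonic visceral endoderm. Whether the arrays hold tissue from beyond the cut, and what part the scattered cells have in these signals, was not tested. Of 8 markers of the embryonic region, 6 were above background, including *T*, *Otx2* and *Pou5f1*, while *Foxa2* was detected on 1 array and *Hesx1* on 0. Likewise, of 8 markers of extraembryonic ectoderm, 3 were above background (*Cdx2*, *Rhox5* and *Tcfap2c*), while *Elf5*, *Eomes*, *Ascl2* and *Gcm1* were detected on 0 arrays. Of 5 primitive erythroid markers 0 were above background, with *Hba-x*, *Hbb-bh1* and *Hbb-y* detected on 0 arrays.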

How the data were processed

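Per the labels, biotinylated cRNA from total RNA was hybridized to the arrays. The authors deposited a log2 signal averaged per symbol and not normalized between arrays, a detection p-value, and bead numbers and bead errors averaged per symbol, which are scores here. Partek is named in the submitters' processing notes, and the summarising software is not given in the sources used here. Probe numbers were inferred as the smallest number making all bead numbers whole, with 1 probe only where detection p-values were multiples of 1 in 936 (tolerance 0.002). This is a lower limit, and 21977 of 30854 symbols had 1. Levels were corrected with normexp (offset 16) and quantile normalized, and tested with limma 3.58.1 in R 4.3.3 at an adjusted p of 0.05, after a check on simulated data. Python 3.11.15, numpy 2.4.6 and pandas 2.3.3 were used. Members matched GRCm38.p6 RefSeq symbols, 77 as current and 6 as older ones. Values are printed for core subunits, isoform sets, members not above background and the 3 largest and smallest SDs, and for further subunits chosen after their values were seen, as were the printed promoter stretches and the motifs. The members and lists were chosen with earlier results of these data known. *Atp5g1*, *Cox7c*, *Cox8a* and *Ndufa4l2* were not analysed here, and values of 2 other genes that the counts include are not reported here. Every column of the table has a sample. The number of arrays limits the precision of each level.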

Additional observations from a re-analysis of the deposited data

How the results depend on the processing

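The count of members above background, 60, was 55 with a detection p under 0.001 and from 61 to 62 without a replicate. It was 67 with the mean signal above the background level, an alternative chosen after seeing the data. Keeping symbols of 1 probe only drops the 30 members with several probes, so it can only lower the count. It left 45, out of 53 members with 1 probe. Complex II fell from 2 to 0 with a detection p under 0.001, and to 1 with symbols of 1 probe only, of which it has 1. Cytochrome c fell to 0 with symbols of 1 probe only, since it has several. The other pathway genes fell from 47 to 24 with that setting, which drops those with several probes. All symbols above background rose from 6357 to 10172 with detection on at least 1 array. The median difference of replicate 1 became 0.37 without normalization, 0.27 with median centring of the deposited signals and 0.38 with normexp and median scaling. That of replicate 3 became -0.46, -0.35 and -0.55. Over all symbols above background these were 0.32, 0.22 and 0.41 on replicate 1 and -0.38, -0.26 and -0.47 on replicate 3. *Sdhd* was no longer called by limma on the deposited signals (0.13 above background), nor without replicate 1 (0.40) or replicate 2 (0.26). In 90 further comparisons with an alternative, counts stayed within 1.5 times and medians within the spread between arrays. No paired analysis was possible because all arrays form 1 group. Signal over background limits the calls of *Sdhd*, *Atp5e* and *Ndufb9*.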
